A study of Saccharomyces cerevisiae BY4741 with 8 samples.

Results

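The genes described here are 10 genes of the glutathione system of *S. cerevisiae*, out of 6388 genes measured. They were chosen by systematic name for their known roles and by no rule on their measured values, although earlier results of these data were known. They are *GSH1* (YJL101C) and *GSH2* (YOL049W) of synthesis, the reductase gene *GLR1* (YPL091W), the transferase genes *GTT1* (YIR038C) and *GTT2* (YLL060C), the glutaredoxin genes *GRX1* (YCL035C) and *GRX2* (YDR513W), and the peroxidase genes *GPX1* (YKL026C), *GPX2* (YBR244W) and *HYR1* (YIR037W). Each had 1 spot per array, and all 10 were found in the files. Strain BY4741, a haploid laboratory strain, was grown in synthetic complete medium with glucose to early log phase and each culture was divided. In the treated cells, KP1019, a ruthenium complex developed against cancer, was added to 80 μg/ml or to 40 μg/ml for 3 h, and the other portion of the culture grew for the same 3 h with no drug. There were 2 biological replicates per dose, and each was hybridized to 2 arrays, 1 with the treated cDNA in Cy5 and 1 with it in Cy3 (dye reversal), for 8 arrays in total. Beyond the word biological, no label says what made the replicates of a dose separate, so the p-values measure the spread between these samples.

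Glutathione is a small peptide of glutamate, cysteine and glycine and the main soluble thiol of the yeast cell. Gsh1 joins glutamate to cysteine in the step that limits synthesis, Gsh2 adds the glycine, and Glr1 uses NADPH to reduce oxidized glutathione again. Gtt1 and Gtt2 are transferases that couple glutathione to electrophilic compounds, after which conjugates can be moved into the vacuole. Grx1 and Grx2 are glutaredoxins, small enzymes that reduce protein disulfides at the expense of glutathione. Gpx1, Gpx2 and Hyr1 (also called Gpx3) belong to the glutathione peroxidase family, and Hyr1 also passes the hydrogen peroxide signal to the transcription factor Yap1. Yap1 is the main activator of the yeast response to peroxides and electrophiles, and several genes of this system are known among its targets.

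Every value below is a log2 ratio of treated over untreated cells on the same array, so that 1 stands for a doubling. The value of a replicate is the mean over its dye-reversal pair, means are given with the SD of these 2 values, and genes were called by limma at an adjusted p under 0.05 (two-sided, Benjamini-Hochberg over 6388 genes, 1 spread for both doses). In a ratio of bulk RNA, less transcript per cell and fewer cells that express a gene cannot be told apart. The median intensity of the treated channel ran between 294 and 3736 over the arrays, and all 10 genes were brighter than the blank spots in both channels on 8 of 8 arrays, although 1 of their 80 spots, a *GLR1* spot, was dimmer than its own local background. A higher limit was the 95th percentile of the blank spots, to be passed in either channel on 8 of 8 arrays. It kept 6 of the 10 genes, without *GTT2*, and 1391 of all 6388 genes. Replicate 1 of 40 μg/ml had the widest ratios (median absolute deviation 0.68, against 0.32 to 0.39 in the other 3 replicates). The dye-reversal arrays of replicate 1 of 80 μg/ml correlated least (r = 0.41 over genes, against 0.66 to 0.83 in the other 3 replicates). Its array with treated cDNA in Cy3 had a median absolute deviation of 0.48, against 0.30 to 0.35 on the other arrays of that dose. Array series and dose cannot be told apart, since no label names a slide or scan. Of the genes that BY4741 is known to lack in whole or in part, *URA3* exceeded the blank spots in the treated channel of 0 of 8 arrays and in the untreated channel of 1 of 8, and *LEU2* in 3 and in 5 of 8, whereas *HIS3*, which is deleted in part, and *MET17* (*MET15*) exceeded them on 8 of 8 in both channels. The *MET17* signal goes against the strain's known deletion, and the source of either signal was not tested.

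At 80 μg/ml only *GTT2* of the 10 genes was called higher, and at 40 μg/ml 5 genes were, namely *GTT1*, *GTT2*, *GSH2*, *GRX1* and *GRX2*. These counts are of genes past the adjusted p and show no difference between the doses. The direct test of that difference called 0 of the 10 genes, where 0.141% of all genes were called. No gene of the set was called lower at either dose in this fit. With 40 μg/ml fitted alone, 5 of 10 genes were called higher and 1, *HYR1*, was called lower (limma adjusted p = 0.0215), where 11.7% of all genes were higher and 8.89% lower. With the sample number as a replicate block, 5 were higher and 2, *HYR1* (limma adjusted p = 0.00838) and *GPX2* (adjusted p = 0.0281), were lower at 40 μg/ml, where the shares were 15.4% and 12.4%. No label says what a sample number shares between the doses, so this block is no known pairing. At 40 μg/ml *HYR1* averaged -1.53 in replicate 1 and -0.04 in replicate 2, and *GPX2* averaged -1.23 and -0.07. These lower calls thus rest mainly on replicate 1. Over all genes limma called 2.11% higher and 1.41% lower at 80 μg/ml, and 13.0% higher and 10.3% lower at 40 μg/ml, so that 1 of 10 and 5 of 10 stand beside 2.11% and 13.0%. At an unadjusted p under 0.05 there were 6 of 10 genes at 80 μg/ml, all of them higher, where the share of all genes was 18.5%, and 7 of 10 at 40 μg/ml (5 higher, with *GPX2* and *HYR1* lower), where the share was 38.4%. Ratios were above 0 on 8 of 8 arrays for 7 of 10 genes, against 10.4% of all genes. These 7 were *GSH1*, *GSH2*, *GTT1*, *GTT2*, *GRX1*, *GRX2* and *GPX1*. The median log2 ratio of the 10 genes at 80 μg/ml was 0.51, and at 40 μg/ml it was 0.58. That of all genes was -0.0026 at 80 μg/ml and -0.011 at 40 μg/ml.

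**Figure D1:**
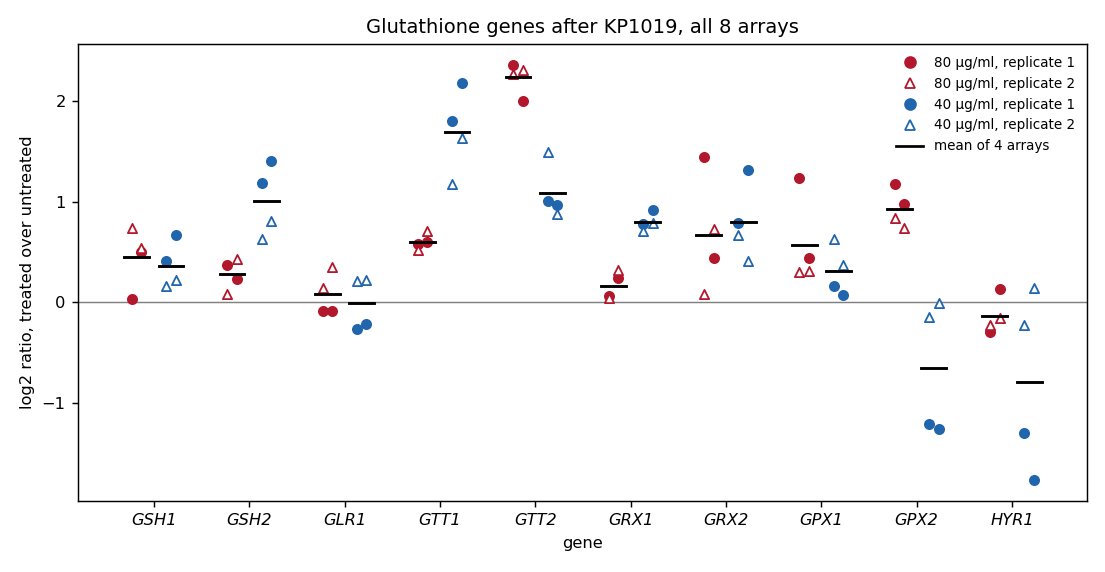
Log2 ratio of treated over untreated cells (vertical axis) for each of the 10 genes (horizontal axis) on every array, with 80 μg/ml in red and 40 μg/ml in blue, replicate 1 as filled circles, replicate 2 as open triangles and the mean of 4 arrays as a black bar. *GTT2* lay between 2.00 and 2.36 on the 4 arrays of 80 μg/ml and between 0.88 and 1.49 on those of 40 μg/ml, where *GPX2* and *HYR1* stood lowest in replicate 1.

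The count at 80 μg/ml depended on how the spread was estimated. With 80 μg/ml fitted alone, without the wider replicates of 40 μg/ml, 6 of 10 genes were called higher, and 12.1% of all genes were. With the ratios of all arrays scaled to 1 spread, 6 of 10 were called, and 12.6% of all genes were. In both settings the 6 genes were *GSH1*, *GTT1*, *GTT2*, *GRX2*, *GPX1* and *GPX2*, and their adjusted p (limma) in the fit of 80 μg/ml alone ran between 3.72e-08 for *GTT2* and 0.0298 for *GSH1*.

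*GTT2*, whose product conjugates glutathione and is known to protect yeast from metals such as cadmium, had the highest ratio of the set at 80 μg/ml and the second highest, after *GTT1*, at 40 μg/ml. At 80 μg/ml its log2 ratio was 2.36 and 2.00 on the arrays of replicate 1, and 2.27 and 2.31 on those of replicate 2. At 40 μg/ml it was 1.01 and 0.97 in replicate 1, and 1.49 and 0.88 in replicate 2. All 8 arrays thus lay above 0, and the lowest array of 80 μg/ml was above the highest of 40 μg/ml. The mean was 2.24 ± 0.08 at 80 μg/ml (SD, n = 2, 4.71-fold, limma adjusted p = 0.00061) and 1.08 ± 0.14 at 40 μg/ml (SD, n = 2, 2.12-fold, adjusted p = 0.00757). Among 6388 genes ordered from the highest mean ratio, *GTT2* was number 6 at 80 μg/ml and number 248 at 40 μg/ml.

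The deposited intensities of *GTT2* differed between the doses in both channels, and so did the brightness of whole arrays. The median treated gene spot read 708 to 3736 on the arrays of 80 μg/ml and 294 to 1165 on those of 40 μg/ml. Intensities are therefore compared within a dose and not between the doses. On the arrays of 80 μg/ml, the treated channel read 5081 and 5671 in replicate 1 and 4929 and 8636 in replicate 2, against 770, 1339, 1717 and 1448 in the untreated channel of the same arrays. At 80 μg/ml every treated value was above every untreated value before any normalization. On the arrays of 40 μg/ml, the treated channel read 538, 310, 1131 and 211, against 871, 291, 441 and 230 in the untreated channel. The groups overlapped there, and on 2 of 4 arrays the treated spot was the dimmer, on arrays whose whole treated channel was dimmer (the median gene spots of the first read 563 in treated and 1815 in untreated cells). The ratios of *GTT2* at 40 μg/ml thus rest on the normalization of these arrays. They came out between 0.94 and 1.36 in the mean under the 15 alternatives in which *GTT2* was measured, some of which leave the mean as it was. *GTT2* was called in each of them, as it was at 80 μg/ml.

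*GTT1*, which encodes a transferase of the endoplasmic reticulum membrane, was higher at the lower dose. Its log2 ratio at 80 μg/ml was 0.58 and 0.60 in replicate 1, and 0.52 and 0.71 in replicate 2. At 40 μg/ml it was 1.80 and 2.18 in replicate 1, and 1.17 and 1.63 in replicate 2. The arrays of the doses did not overlap, in the opposite order to those of *GTT2*. The mean was 0.60 ± 0.02 at 80 μg/ml (SD, n = 2, adjusted p = 0.139) and 1.70 ± 0.42 at 40 μg/ml (SD, n = 2, 3.24-fold, adjusted p = 0.00341, limma), and only the second passed. *GTT1* was number 380 of the 6388 genes at 80 μg/ml and number 54 at 40 μg/ml.

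**Figure D2:**
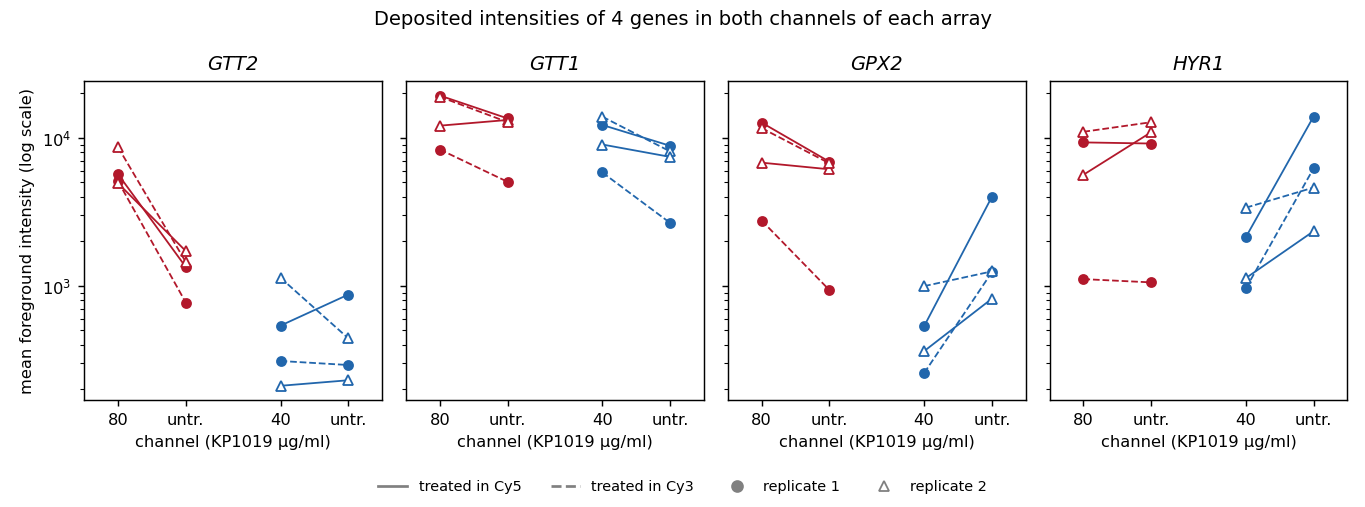
Mean foreground intensity as deposited, before normalization (vertical axis, log scale), of *GTT2*, *GTT1*, *GPX2* and *HYR1* in the treated and the untreated channel (untr.) of each array, joined by a line, with 80 μg/ml in red, 40 μg/ml in blue, and the dye of the treated channel given by the line style. The treated *GTT2* spots of 80 μg/ml read 4929 to 8636 and their untreated partners 770 to 1717, while the channels of 40 μg/ml overlapped.

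The methods of the study asked for at least a 3.5-fold change in all replicates, with a limit on the difference between dye-reversal arrays. By these criteria 1 of 10 genes passed at 80 μg/ml and 0 of 10 at 40 μg/ml, and of all genes 0.0783% were higher at 80 μg/ml and 0.219% at 40 μg/ml. The gene was *GTT2*, with a mean fold change over the dye-reversal pair of 4.57 in replicate 1 and 4.91 in replicate 2 of 80 μg/ml. Its % difference between the arrays of a pair was 25.1 in replicate 1 and 2.77 in replicate 2, both under the limit of 50. *GTT1* at 40 μg/ml came nearest among the others, with 4.01-fold in replicate 1 and 2.68-fold in replicate 2. The criteria involve no test.

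Of the synthesis genes, *GSH2*, which encodes glutathione synthetase, rose at 40 μg/ml and *GSH1*, which encodes the glutamate cysteine ligase, was not called at either dose. *GSH2* had log2 ratios of 0.37, 0.23, 0.08 and 0.43 on the arrays of 80 μg/ml and of 1.19, 1.41, 0.63 and 0.81 on those of 40 μg/ml, with replicate 1 first at each dose. Every array of 80 μg/ml was below every array of 40 μg/ml. Before normalization the treated *GSH2* spot was the dimmer on both Cy5 arrays of 40 μg/ml (8359 against 9430 and 4713 against 6854). The mean was 0.28 ± 0.03 at 80 μg/ml (SD, n = 2, adjusted p = 0.496) and 1.01 ± 0.41 at 40 μg/ml (SD, n = 2, 2.01-fold, adjusted p = 0.0134, limma). For *GSH1* the arrays lay between 0.03 and 0.74 at 80 μg/ml and between 0.17 and 0.67 at 40 μg/ml, so that the doses overlapped and every array was above 0. Its mean was 0.45 ± 0.27 at 80 μg/ml (SD, n = 2, adjusted p = 0.241) and 0.37 ± 0.24 at 40 μg/ml (SD, n = 2, adjusted p = 0.181, limma).

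*GLR1*, the gene of glutathione reductase, had ratios on both sides of 0. Its arrays read -0.09, -0.08, 0.15 and 0.35 at 80 μg/ml and -0.27, -0.21, 0.21 and 0.23 at 40 μg/ml, with replicate 1 first. The -0.08 came from a spot that read 2509 in treated and 2522 in untreated cells under a local background of 4031 and 3795, so that it is no measurement of *GLR1*, and replicate 1 of 80 μg/ml rests on the -0.09 of its other array. The arrays of replicate 2 were above 0 at both doses, and those of replicate 1 of 40 μg/ml below it. The mean was 0.08 ± 0.24 at 80 μg/ml (95% interval -0.36 to 0.52, adjusted p = 0.886) and -0.01 ± 0.33 at 40 μg/ml (95% interval -0.45 to 0.43, adjusted p = 0.976, limma, SD, n = 2).

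Both glutaredoxin genes rose at 40 μg/ml and neither was called at 80 μg/ml. *GRX1* had 0.06, 0.24, 0.05 and 0.32 at 80 μg/ml and 0.78, 0.92, 0.71 and 0.79 at 40 μg/ml. The arrays of the doses did not overlap, and those of 40 μg/ml lay closer together than for any other gene of the set called at that dose. Before normalization its treated spot was the dimmer in replicate 1 of 40 μg/ml (11452 against 16487 and 8571 against 9547). In replicate 2 it read 14458 against 11927 and 8422 against 12556. The ratios of *GRX1* at 40 μg/ml thus rest on the normalization, like those of *GTT2*. Its mean was 0.17 ± 0.02 at 80 μg/ml (SD, n = 2, adjusted p = 0.658) and 0.80 ± 0.07 at 40 μg/ml (SD, n = 2, 1.74-fold, adjusted p = 0.0152, limma). *GRX2*, the gene of the more abundant glutaredoxin of the pair, had 1.45, 0.44, 0.08 and 0.73 at 80 μg/ml and 0.79, 1.31, 0.68 and 0.41 at 40 μg/ml. Its doses overlapped, and the arrays of replicate 1 of 80 μg/ml differed by more from each other than the doses did. Before normalization the treated *GRX2* spot was the dimmer on both Cy5 arrays of 40 μg/ml (9075 against 13304 and 2372 against 4220). The mean was 0.67 ± 0.38 at 80 μg/ml (SD, n = 2, adjusted p = 0.129) and 0.80 ± 0.36 at 40 μg/ml (SD, n = 2, 1.74-fold, adjusted p = 0.0317, limma). Leaving out replicate 1 of 40 μg/ml ended the call of *GRX2* there (limma adjusted p = 0.0896), and so did median centring in place of loess (adjusted p = 0.0588). *GRX1* and *GRX2* are related in sequence, and hybridization of either cDNA to the other spot was not tested.

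The peroxidase genes were not called at either dose. *GPX1* had 1.24 and 0.44 in replicate 1 and 0.30 and 0.31 in replicate 2 of 80 μg/ml, and 0.17, 0.08, 0.63 and 0.37 at 40 μg/ml. The array of replicate 1 with treated cDNA in Cy3 stood apart from the other 3 arrays of 80 μg/ml. The mean was 0.57 ± 0.38 at 80 μg/ml (SD, n = 2, adjusted p = 0.176) and 0.31 ± 0.27 at 40 μg/ml (SD, n = 2, adjusted p = 0.285, limma).

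*GPX2*, a gene known as a Yap1 target, was above 0 on 4 of 4 arrays at 80 μg/ml and below 0 on 4 of 4 arrays at 40 μg/ml. At 80 μg/ml it had 1.17 and 0.97 in replicate 1, and 0.84 and 0.74 in replicate 2. At 40 μg/ml it had -1.21 and -1.26 in replicate 1, and -0.14 and -0.01 in replicate 2. The values of 40 μg/ml far from 0 were thus those of replicate 1, the replicate with the widest ratios. The mean was 0.93 ± 0.20 at 80 μg/ml (SD, n = 2, 1.91-fold, adjusted p = 0.108) and -0.65 ± 0.82 at 40 μg/ml (SD, n = 2, adjusted p = 0.114, limma). With 80 μg/ml fitted alone, the adjusted p of *GPX2* was 0.000204.

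*HYR1*, the gene of the peroxide sensor upstream of Yap1, had -0.29, 0.14, -0.22 and -0.16 at 80 μg/ml, and -1.30 and -1.76 in replicate 1 and -0.22 and 0.14 in replicate 2 of 40 μg/ml. Replicate 2 of 40 μg/ml overlapped the arrays of 80 μg/ml, and replicate 1 lay far below them. The mean was -0.13 ± 0.08 at 80 μg/ml (SD, n = 2, adjusted p = 0.886) and -0.79 ± 1.06 at 40 μg/ml (SD, n = 2, adjusted p = 0.106, limma). *HYR1* and *GTT1* are neighbours on chromosome IX in the RefSeq annotation, with 0 genes between them, and in replicate 1 of 40 μg/ml, where *HYR1* averaged -1.53, *GTT1* averaged 1.99.

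**Figure D3:**
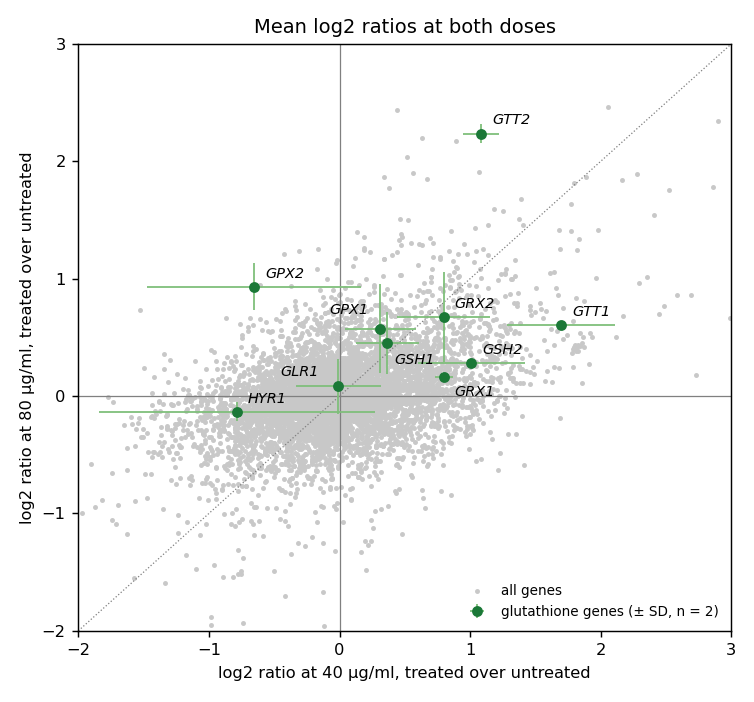
Mean log2 ratio at 80 μg/ml (vertical axis) against that at 40 μg/ml (horizontal axis) for the 10 glutathione genes in green, with bars of ± SD over 2 replicates, and for all genes in grey, of which 19 lie outside the axes. The dotted line marks equal ratios, and *GTT2* lies at 2.24 and 1.08, *GTT1* at 0.60 and 1.70.

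The test of the difference between the doses called none of the 10 genes, where 0.141% of all genes were called by limma at an adjusted p under 0.05. At an unadjusted p under 0.05 there were 5 of 10, against 20.9% of all genes. *GPX2* (1.59, 95% interval 0.71 to 2.46, adjusted p = 0.136, limma) and *GTT2* (1.15, interval 0.62 to 1.69, adjusted p = 0.107) had higher ratios at 80 μg/ml than at 40 μg/ml. *GTT1* (-1.10, interval -1.72 to -0.47, adjusted p = 0.136, limma), *GSH2* (-0.73, interval -1.35 to -0.11, adjusted p = 0.193) and *GRX1* (-0.63, interval -1.15 to -0.11, adjusted p = 0.183) had lower ratios at 80 μg/ml. None of these differences passed the adjustment. The other 5 intervals held 0, and the widest of them was that of *HYR1* (0.65, interval -0.38 to 1.68, adjusted p = 0.419, limma). For *GSH1*, *GLR1*, *GRX2* and *GPX1* the differences lay between -0.12 and 0.26 and the intervals reached from -0.80 to 0.91. Differences within these intervals could not be told from none.

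**Figure D4:**
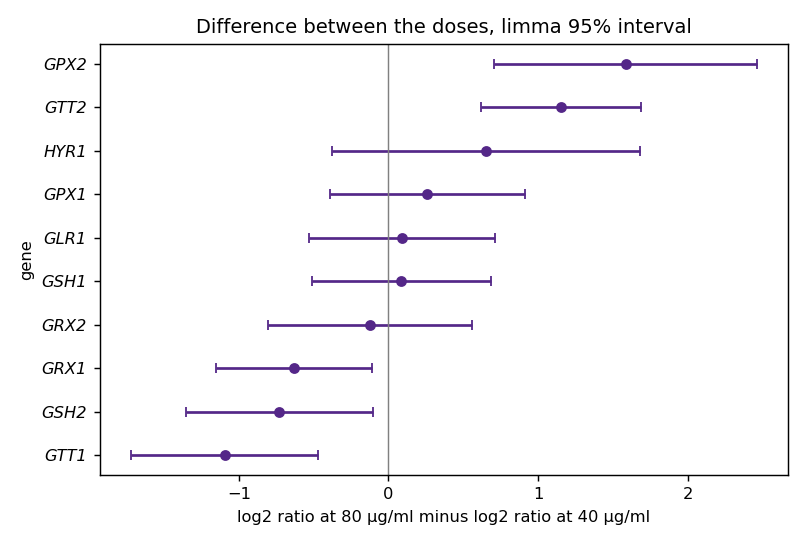
Log2 ratio at 80 μg/ml minus that at 40 μg/ml (horizontal axis) for each of the 10 genes (vertical axis), with the 95% interval of the limma fit as the bar. *GPX2* (1.59) and *GTT2* (1.15) lie to the right of 0 and *GTT1* (-1.10), *GSH2* (-0.73) and *GRX1* (-0.63) to the left, none with an adjusted p under 0.05.

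Over the 4 replicates, the 5 genes whose log2 ratios were nearest to those of *GTT2* were *ICT1* (Euclidean distance 0.627), *OSI1* (0.666), *PRM7* (0.825), *ECL1* (0.858) and YPR015C (0.920). Their means ran between 1.68 and 2.20 at 80 μg/ml and between 0.64 and 1.39 at 40 μg/ml. This is a description over 4 values.

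The lists of related genes held calls in both directions, and their counts stand beside the 2.11% higher and 1.41% lower of all genes at 80 μg/ml and the 13.0% and 10.3% at 40 μg/ml. Among 5 transferase-like genes, *ECM4*, an omega-class transferase gene, rose at both doses, by 1.45 ± 0.32 at 80 μg/ml (adjusted p = 0.00643) and 1.14 ± 0.06 at 40 μg/ml (SD, n = 2, adjusted p = 0.00829, limma). Its relative *GTO1* had 0.36 ± 0.28 at 80 μg/ml (adjusted p = 0.323) and rose by 1.13 ± 0.05 at 40 μg/ml (adjusted p = 0.00786, limma). The arrays of *GTO1* at 40 μg/ml read 1.53 and 0.80 in replicate 1 and 0.97 and 1.22 in replicate 2. On the array that read 0.80, its spot was not above the blank spots in either channel. In the same list *GTT3* fell by 0.99 ± 0.13 at 80 μg/ml (adjusted p = 0.0391, limma). *URE2*, whose product resembles transferases and restrains nitrogen catabolism genes, fell by 0.61 ± 0.01 at 40 μg/ml (adjusted p = 0.034, limma), with arrays between -0.91 and -0.32. The list thus held 1 gene higher and 1 lower at 80 μg/ml, and 2 higher and 1 lower at 40 μg/ml.

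The 6 other glutaredoxin genes, *GRX3* to *GRX8*, gave 0 calls at either dose, unlike *GRX1* and *GRX2* at 40 μg/ml, and the difference between the groups was not tested. *GRX8* was brighter than the blank spots at 40 μg/ml on 0 of 4 arrays in the treated and 1 of 4 in the untreated channel, so that it was not measured at that dose. The median of the 6, *GRX8* included, was -0.13 at 80 μg/ml and -0.25 at 40 μg/ml. Of 11 genes of glutathione breakdown and transport, 0 were called at 80 μg/ml and 1 at 40 μg/ml. It was *BPT1*, the gene of a vacuolar transporter of glutathione conjugates, which rose by 1.12 ± 0.60 (SD, n = 2, adjusted p = 0.0151, limma). *GEX1* and *GEX2* of this list are nearly identical copies, and their spots cannot be told apart with certainty. Of 5 genes of aldehyde detoxification by way of glutathione, 0 were called at 80 μg/ml and 2 rose at 40 μg/ml. These were YJL068C, an S-formylglutathione hydrolase gene (0.80 ± 0.25, adjusted p = 0.0175), and *SFA1*, which encodes the formaldehyde dehydrogenase that acts before it (0.67 ± 0.38, adjusted p = 0.0409, limma).

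Genes of the routes that supply NADPH, the reductant of Glr1, went in both directions. Not all of their products form NADPH themselves, as the transketolase and the lactonases do not. Of 9, 1 rose and 0 fell at 80 μg/ml (2.11% and 1.41% of all genes), and 2 rose and 4 fell at 40 μg/ml (13.0% and 10.3%). *GND2* and *GND1* encode isoenzymes of phosphogluconate dehydrogenase. *GND2* rose by 1.05 ± 0.17 at 80 μg/ml (adjusted p = 0.0255) and 1.65 ± 0.38 at 40 μg/ml (adjusted p = 0.00385, limma). *GND1* had -0.74 ± 0.54 at 80 μg/ml (adjusted p = 0.108), and at 40 μg/ml it fell by 1.05 ± 0.09 (adjusted p = 0.0157, limma). The phosphogluconolactonase genes were split likewise at 40 μg/ml, where *SOL4* rose by 0.75 ± 0.18 and *SOL3* fell by 1.23 ± 0.70. *SOL3* had -1.73 in replicate 1, the replicate with the widest ratios, and -0.73 in replicate 2. The other genes that fell at 40 μg/ml were *TKL1*, the gene of the main transketolase, by 0.85 ± 0.16, and *ALD6*, the gene of the cytosolic acetaldehyde dehydrogenase, by 0.76 ± 0.12. Of 2 genes that make cysteine, *CYS4*, the gene of cystathionine beta-synthase, had -0.24 ± 0.06 at 80 μg/ml and fell by 1.15 ± 0.57 at 40 μg/ml (adjusted p = 0.0131, limma). It had -1.55 in replicate 1 and -0.75 in replicate 2 of 40 μg/ml.

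Among 6 regulator genes, *YAP1* itself rose at both doses, by 1.21 ± 0.07 at 80 μg/ml (adjusted p = 0.00944) and 1.14 ± 0.15 at 40 μg/ml (SD, n = 2, adjusted p = 0.00672, limma), and the other 5 were not called. Of 9 Yap1 targets outside the glutathione system, 1 rose and 0 fell at 80 μg/ml (2.11% and 1.41% of all genes), and 3 rose and 1 fell at 40 μg/ml (13.0% and 10.3%). *OYE3*, which encodes an NADPH oxidoreductase, rose by 1.45 ± 0.13 at 80 μg/ml (adjusted p = 0.00555) and 1.41 ± 0.24 at 40 μg/ml (adjusted p = 0.00456, limma). The multidrug exporter gene *FLR1* (1.18 ± 0.27) and the sulfiredoxin gene *SRX1* (0.99 ± 0.03) rose at 40 μg/ml, and had 0.72 ± 0.47 and 0.60 ± 0.09 at 80 μg/ml, where neither passed. The arrays of *SRX1* at 40 μg/ml lay further apart than this SD, at 0.45 and 1.48 in replicate 1 and 1.19 and 0.84 in replicate 2. The thioredoxin reductase gene *TRR1* had -0.06 ± 0.21 at 80 μg/ml and fell by 1.24 ± 0.50 at 40 μg/ml (adjusted p = 0.0101, limma). It had -1.59 in replicate 1 and -0.88 in replicate 2 of 40 μg/ml. The median of these 9 targets was 0.34 at 80 μg/ml and 0.46 at 40 μg/ml. None of the genes in these lists differed between the doses by adjusted p (limma).

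**Figure D5:**
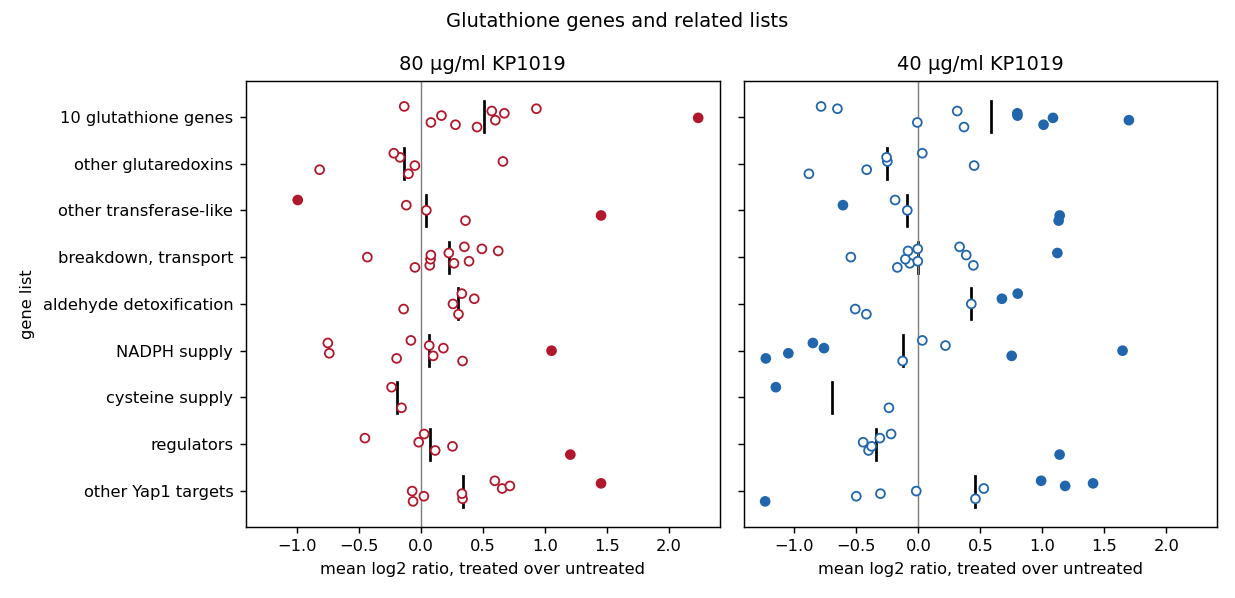
Mean log2 ratio of treated over untreated cells (horizontal axis) of each gene in the 10 glutathione genes and in 8 related lists (vertical axis), at 80 μg/ml (left) and 40 μg/ml (right), with filled points at a limma adjusted p under 0.05 and the list median as a black bar. The glutathione genes hold 1 filled point at 80 μg/ml and 5 at 40 μg/ml, all to the right of 0, and the list of NADPH supply has filled points on both sides at 40 μg/ml.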

How the data were processed

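Cultures, doses, dyes and replicates were taken from the labels and the methods. The authors quantified scanned spotted arrays in MagicTool and deposited unnormalized foreground and background intensity values, 1 per channel for each of 6688 features, so that the genome copies that the methods describe on each array were not compared. The authors also deposited a table of signed fold changes (a score of red over green, times 1 factor per array, whose normalization is not described), which was used only as an alternative. Its direction was settled against the intensities, with medians of log2 red over green between -0.21 and 0.11.

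Background correction of mean intensities used normexp with an offset of 50. Loess normalization was run per array, and 23 control and 85 blank spots had weight 0 in it. Ratios from arrays with treated cDNA in Cy3 were inverted before each dye-reversal pair was averaged. Log2 ratios of 4 replicates were fitted with limma 3.58.1 in R 4.3.3 (lmFit, eBayes, 2 residual and 5.66 prior degrees of freedom), and p-values were adjusted over 6388 genes. A spot was above the blank spots if brighter than their median by 3 median absolute deviations. For the criteria of the methods, unlogged fold changes were averaged over the dye-reversal pair. The number of arrays limits the precision.

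The 10 genes and the lists were chosen with earlier results of these data known. Named from each list are up to 4 genes with the largest mean at a dose among those that passed with 1 sign on 4 of 4 arrays. In the list of NADPH supply all genes that passed are named, which is more than 4. *GRX8*, *GEX1* and *GEX2* passed at neither dose and are named for the limits of their spots. The calculations were tested on simulated data in which the 4 replicates of a gene had the same spread. The measured replicates differed in spread, so that test checked the calculations and not the counts reported here. Gene names and neighbours came from RefSeq, which matched 5849 of 6388 names. Alternatives covered background correction, normalization, scaling, signal, a filter on dim spots, the spread, single dyes, single replicates, a replicate block and the limits of the criteria. The sample numbers did not pair the replicates: no label says what they share, and there were 2 per dose. Sequences were not analysed here.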

Additional observations from a re-analysis of the deposited data

Results flagged for a closer look

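On the 4 arrays of 80 μg/ml, *GPX1* had a log2 ratio of 1.24 on the array of replicate 1 with treated cDNA in Cy3, far from the 0.30 to 0.44 of the other 3 arrays, with a gap to the nearest of 0.848 of the whole range (above Dixon's 95% critical value for 4 values). Chance flags about 1 in 20 such groups. The rule was applied to all 10 genes at both doses, and this was the only group flagged. The 4 arrays are dye-reversal pairs of 2 replicates and so are not 4 independent values. Without replicate 1 of 80 μg/ml, the difference of *GPX1* between the doses was -0.0072.

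*GPX2* differed between 80 and 40 μg/ml by 1.59 on the log2 scale, with every array of 80 μg/ml above 0 and every array of 40 μg/ml below 0. In the test of the difference itself it was not called (limma adjusted p = 0.136), and without replicate 1 of 40 μg/ml, which held the values far below 0, the difference was 1.01 (adjusted p = 0.0283), with 1 replicate left at 40 μg/ml and the spread taken from 80 μg/ml alone.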

How the results depend on the processing

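*GTT2* was called at both doses in each of 15 alternatives, and *GTT1* at 40 μg/ml in each of 16. Over 455 values of the 10 genes, 380 kept direction and call, 52 gained a call, 6 lost one and 17 changed sign. Many of these values could not change direction. The mean of a dose stays the same under the filter, either block, each dose fitted alone, or a replicate left out at the other dose. For each dose, the fit alone and those without a replicate of the other dose are the same fit. The 455 values are thus not independent checks. At 80 μg/ml, where 1 gene was called, 6 were with each dose fitted alone or with arrays scaled, 2 with treated cDNA in Cy3 alone, and 0 of the 6 genes bright enough for the filter on dim spots, which removed *GTT2*. Leaving out 1 replicate gave 1 to 6 genes, 6 without either replicate of 40 μg/ml, which leaves the spread to 80 μg/ml. At 40 μg/ml, where 5 genes were called, 2 were with the background subtracted, where *GSH2*, *GRX1* and *GRX2* had adjusted p between 0.0577 and 0.0894, and leaving out 1 replicate gave 4 to 8. The 8 (6 higher, with *GPX2* and *HYR1* lower) came without replicate 2 of 40 μg/ml, where 47.9% of all genes were called, against 23.3%. Between the doses, where 0 were called, 2 were with arrays scaled (9.35% of all genes), and leaving out 1 replicate gave 0 to 6, the 6 again without replicate 2 of 40 μg/ml, where 36.6% of all genes were called, against 0.141%. The criteria of the methods passed 2 genes at a 2-fold threshold and 1 to 2 without 1 replicate. The causes were not tested.

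With the sample number as a replicate block, 2 genes were called at 80 μg/ml (*GTT2* and *GPX2*, both higher, 7.34% of all genes), 7 at 40 μg/ml (5 higher, with *GPX2* and *HYR1* lower, 27.8%) and 3 between the doses (*GTT2* and *GPX2* higher and *GTT1* lower at 80 μg/ml, 6.89%). Since deviations of same-numbered replicates correlated with r = -0.14 over 6388 genes, crossed numbers were tried after seeing the data. They gave 4 calls at 80 μg/ml (11.0% of all genes), 7 at 40 μg/ml (33.3%) and 3 between the doses (13.0%).

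Most changes of sign concerned values between -0.12 and 0.26, and the exception was the difference of *HYR1* (0.65). *GLR1* at 40 μg/ml had 0.039 with arrays scaled, 0.011 with total brightness and 0.0016 with treated cDNA in Cy3 alone. The difference, 80 minus 40 μg/ml, turned for *GRX2* with median centring (0.055), arrays scaled (0.15) or Cy3 alone (0.094), and for *GSH1* with Cy3 alone (-0.13). Leaving out 1 replicate at a time gave *GLR1* -0.086 to 0.25 at 80 μg/ml and -0.24 to 0.22 at 40 μg/ml. It gave differences of -0.39 to 0.15 for *GRX2*, -0.14 to 0.32 for *GLR1*, -0.094 to 1.40 for *HYR1*, -0.10 to 0.27 for *GSH1* and -0.0072 to 0.53 for *GPX1*.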
